A study of Mus musculus with 2 samples.

Results

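The miR-148 and miR-152 family comprises 3 mouse microRNA genes, Mir148a, Mir148b and Mir152, whose main mature products carry the same seed. The members were the rows of the count tables whose GENCODE M21 symbol is one of these names, and all 3 were found among the 2202 microRNA genes counted. The tissue was whole heart of B6CASTF1/J females at 2 months of age, hybrids with 1 C57BL/6J and 1 CAST/EiJ copy of each autosome, and the RNA sequenced was in the microRNA size range. There was 1 group with 2 libraries, labelled as biological replicates 1 and 2, with no treatment and no contrasting condition. In the labels the 2 hearts have different female numbers and 1 common donor label, so whether they are separate animals is not settled. The comparison of the libraries therefore shows how far 2 samples differed beyond counting error, which may be technical, and no effect of a condition.

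A microRNA is cut from a hairpin transcript and guides an Argonaute protein to messenger RNAs that pair with its seed, after which the message is repressed. The miR-148 and miR-152 family is known for repressing Dnmt1, the enzyme that copies DNA methylation to new strands, and Camk2a, a calcium-dependent kinase, in immune cells. MiR-148a is also known as an abundant liver microRNA that lowers the LDL receptor and the cholesterol exporter Abca1. Mir148b and Mir152 lie inside genes for zeta subunits of the COPI coat, which carries proteins from the Golgi back to the endoplasmic reticulum.

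The mature sequences of the 3' arm, from RefSeq on GRCm38.p6 (the assembly also called mm10), are shown because the shared seed defines the family and the bases after it tell the members apart. Capitals mark the seed, bases 2 to 8.
miR-148a-3p: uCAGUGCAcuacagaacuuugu
miR-148b-3p: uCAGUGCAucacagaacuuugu
miR-152-3p: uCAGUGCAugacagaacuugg

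Positions are counted from 1 at the 5' end, and a substitution is written with the base of the first-named microRNA before the position and that of the second after it. MiR-148a-3p and miR-148b-3p differed at 2 of 22 bases, C9U and U10C. MiR-148a-3p and miR-152-3p differed at 3 of the 21 bases compared, C9U, U10G and U20G. MiR-148b-3p and miR-152-3p differed at 2 of 21 bases, C10G and U20G. The differences thus fell directly behind the seed and near the 3' end. The longest run of bases that 2 of these mature products share was 12, between miR-148a-3p and miR-148b-3p.

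The strand from the 5' arm is shown to make clear that the second product does not share 1 seed across the family. Capitals again mark bases 2 to 8.
miR-148a-5p: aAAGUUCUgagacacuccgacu
miR-148b-5p: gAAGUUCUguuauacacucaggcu
miR-152-5p: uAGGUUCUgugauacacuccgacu

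The 5' products of Mir148a and Mir148b had the seed AAGUUCU and that of Mir152 had AGGUUCU. The deposited tables give 1 count per hairpin, so the 2 arms cannot be told apart and every level given for a member is that of both arms together.

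The hairpins follow, with the 3' mature product in capitals, because a read was counted by its place in the hairpin.
Mir148a: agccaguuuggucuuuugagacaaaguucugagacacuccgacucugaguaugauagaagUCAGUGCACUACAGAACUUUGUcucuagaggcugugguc
Mir148b: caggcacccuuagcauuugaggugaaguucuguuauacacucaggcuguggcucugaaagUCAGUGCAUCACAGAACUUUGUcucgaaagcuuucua
Mir152: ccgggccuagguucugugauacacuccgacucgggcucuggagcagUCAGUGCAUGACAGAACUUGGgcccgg

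The Mir152 hairpin was the shortest of the 3, with 73 bases against 99 for Mir148a and 97 for Mir148b, and its GC content was 61.6% against 45.5% and 45.4%. Counting set aside reads that mapped to several places, so copies matter for these levels. The longest exact stretch that Mir148a or Mir148b shared with any of the other 2201 hairpins, on either strand, was 15 bases, which they shared with each other. For Mir152 it was 13 bases. None of the members reached the 20 bases used here to mark a gene whose reads could have been lost to a copy. The search covered exact stretches in annotated hairpins only. Copies elsewhere in the genome or with mismatches were not looked for, so a loss of reads to them was not tested.

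Among 1738 mature mouse microRNAs in the RefSeq table, the letters CAGUGCA stood at bases 2 to 8 in 3, or 0.173%, and these were the 3 members. The same letters occurred at another position in 14 further mature microRNAs, 7 of which carried them at bases 1 to 7. These include the miR-130 and miR-301 microRNAs, whose seed is shifted by 1 base. The most abundant of the 7 in these hearts is shown with the letters in capitals.
miR-130a-3p: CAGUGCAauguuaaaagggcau

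Mir130a, known in blood vessels, was counted at 2916 CPM (replicate 1) and 2394 CPM (replicate 2). CPM are own-strand counts per 1000000 counts on all microRNA genes of that library. Both Mir130a values lay above every value of the family's members. Of the other carriers at bases 1 to 7, Mir130b had 652 and 670 counts, Mir301 had 69 and 109, and Mir6341, Mir721, Mir6389 and Mir130c had 0 in both libraries.

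In mm10, Mir148a (ENSMUSG00000065505.1) lies on the minus strand of chromosome 6 at 51269812 to 51269910 and overlaps no other annotated gene. The nearest protein-coding gene is Nfe2l3, at 162760 bp. Mir148b (ENSMUSG00000065560.1) lies on the plus strand of chromosome 15 at 103285125 to 103285221, in intron 1 of all 4 annotated transcripts of Copz1 and 12411 bp from that gene's start. Mir152 (ENSMUSG00000065515.1) lies on the plus strand of chromosome 11 at 96850393 to 96850465, in intron 1 of the 3 of 5 Copz2 transcripts that span it and 523 bp from the gene's start. Both hosts are read in the direction of their microRNA. No other microRNA gene lay within 10 kb of any member, so none is part of an annotated cluster at that distance.

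The libraries held 2424441 and 2770301 reads on microRNA genes' own strands, out of 8069273 and 7995058 reads in all. Reads mapped to several places made up 49.5% and 42.7% of them. Detection required 10 or more counts in each library, which 306 of the 2202 genes reached, all 3 members among them. The heart muscle microRNAs Mir208a and Mir499, which lie in myosin genes, were detected at 3704 ± 3057 and 3497 ± 1211 CPM (SD, n = 2). Intervals given here are 95% exact intervals and cover counting error only, since the tables hold reads, with no molecular identifiers to tell molecules apart.

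All 3 members were detected at a middling level in the heart. Mir148a had 423 counts in replicate 1, or 174 CPM (exact interval 158 to 192), and 202 in replicate 2, or 72.9 CPM (63.2 to 83.7). Mir152 had 421 counts in replicate 1, or 174 CPM (157 to 191), and 194 in replicate 2, or 70.0 CPM (60.5 to 80.6). Mir148b had 318 counts in replicate 1, or 131 CPM (117 to 146), and 157 in replicate 2, or 56.7 CPM (48.2 to 66.3). Each member was high in replicate 1 and low in replicate 2, and the highest value of replicate 2, 72.9 CPM, lay below the lowest of replicate 1, 131 CPM. No read of any member fell on the opposite strand in either library.

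The means were 124 ± 71.8 CPM for Mir148a, 122 ± 73.3 CPM for Mir152 and 93.9 ± 52.7 CPM for Mir148b (SD, n = 2). By mean CPM they ranked 135, 136 and 148 of all genes, just above the median of the detected genes, 80.1 CPM. In replicate 1 alone the ranks were 123, 124 and 141, and in replicate 2 they were 150, 152 and 159. The spread between the libraries was larger than the distance between any pair of members, so the order of the means rests on comparisons within a library.

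**Figure D1:**
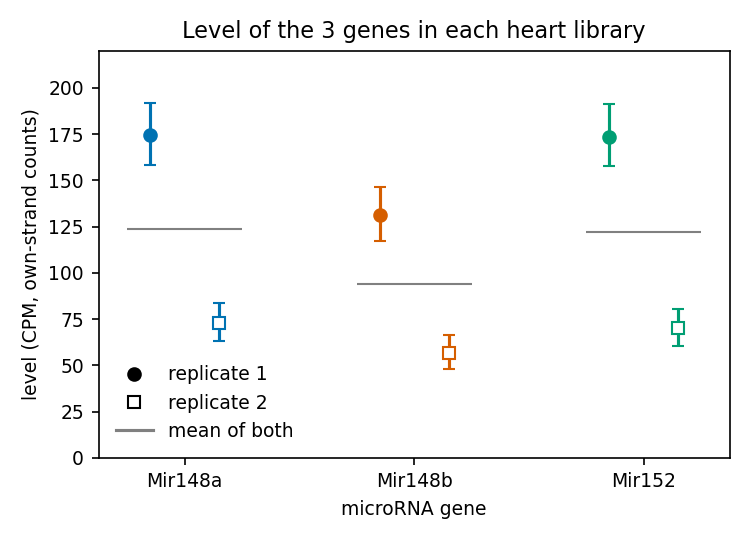
Level of each member in CPM (vertical axis, from 0) in replicate 1 (filled circles) and replicate 2 (open squares), with 95% exact intervals for counting error and the mean of both libraries as a grey line. All 3 genes sit between 131 and 174 CPM in replicate 1 and between 56.7 and 72.9 CPM in replicate 2, with Mir148b lowest in both.

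Within a library the members' counts can be compared without any scaling. The count ratio of Mir148a to Mir152 was 1.00 in replicate 1, with an exact interval of 0.876 to 1.15, and 1.04 in replicate 2 (0.851 to 1.27). Neither interval excludes equal counts, so these neighbours in the order did not differ beyond counting error. The count ratio of Mir148a to Mir148b was 1.33 in replicate 1 (1.15 to 1.54) and 1.29 in replicate 2 (1.04 to 1.60). Mir148b thus had fewer counts than Mir148a in both libraries, beyond counting error. The count ratio of Mir148b to Mir152 was 0.755 in replicate 1 (0.651 to 0.876) and 0.809 in replicate 2 (0.652 to 1.004), and in replicate 2 the interval reached equal counts. Divided by the length of the annotated hairpin, Mir152 came first, with a mean ratio of Mir148a to Mir152 of 0.754 and of Mir148b to Mir152 of 0.589. A microRNA read covers a mature product and not the hairpin, so the ratio of counts is the main one here.

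The make-up of the family did not differ between the libraries beyond counting error. Mir148a gave 36.4% of the family's counts in replicate 1, with an exact interval of 33.6 to 39.2, and 36.5% in replicate 2 (32.5 to 40.7). Mir152 gave 36.2% (33.5 to 39.1) and 35.1% (31.1 to 39.2), and Mir148b gave 27.4% (24.8 to 30.0) and 28.4% (24.7 to 32.3). The ratio of Mir148a to Mir152 in replicate 1 was 0.965 times that in replicate 2 (exact conditional interval 0.754 to 1.23). For Mir148a to Mir148b this was 1.03 (0.795 to 1.34), and for Mir148b to Mir152 it was 0.933 (0.717 to 1.22). Each interval holds 1, and shifts within those bounds are not excluded by these counts.

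The family as a whole took a small and unequal share of the counts. Replicate 1 held 1162 counts of the family, 0.0479% of the total (exact interval 0.0452 to 0.0508), and replicate 2 held 553, or 0.0200% (0.0183 to 0.0217). The mean was 0.0339% ± 0.0198 (SD, n = 2). The summed level was 2.40-fold lower in replicate 2 (2.17 to 2.66).

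Each member was lower in replicate 2 by more than counting error. Mir152 was 2.48-fold lower (exact interval 2.09 to 2.95), a log2 ratio of replicate 2 over replicate 1 of -1.31, with an adjusted p of 6.2e-27. Mir148a was 2.39-fold lower (2.02 to 2.84), a log2 ratio of -1.26, with an adjusted p of 1.7e-25. Mir148b was 2.31-fold lower (1.91 to 2.82), a log2 ratio of -1.21, with an adjusted p of 3.1e-18. The p-values are from two-sided exact binomial tests of the counts against the library totals, adjusted over the 306 detected genes by the Benjamini-Hochberg method. The 3 intervals overlap one another almost wholly.

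Such calls were common between these libraries. The test called 61.1% of the 306 genes in either direction, 41.5% lower and 19.6% higher in replicate 2, and with a fold of at least 1.5 it called 25.5% lower. All 3 members were lower by both rules. The median detected gene had a log2 ratio of -0.19, and the members lay 1.02 to 1.12 below it on that scale. Mir152 had the 16th lowest log2 ratio of the 306, Mir148a the 23rd and Mir148b the 25th, which is the lowest 5.23% to 8.17%. Scaling that sets the median gene near 0 gave log2 ratios of -0.99 to -1.09 with TMM factors and -1.02 to -1.12 with DESeq2 size factors, all called lower. Those scalings changed the split of all calls from 60 higher and 127 lower to 97 and 84 with TMM factors, and to 94 and 88 with DESeq2 size factors.

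Other genes of like abundance had a wide range of ratios. Between 47.0 and 247 CPM, within a factor of 2 of the members, lay 74 other detected genes, with a median log2 ratio of -0.22 and an SD of 0.84. Of these, 33 (44.6%) were called lower in replicate 2, beside 41.5% of all 306 detected genes. By at least 1.5-fold 22 of the 74 were called lower, beside 25.5% of the 306. A log2 ratio at or below that of Mir148b was found in 7 (9.46%). These counts describe the neighbourhood and were not tested against the members.

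**Figure D2:**
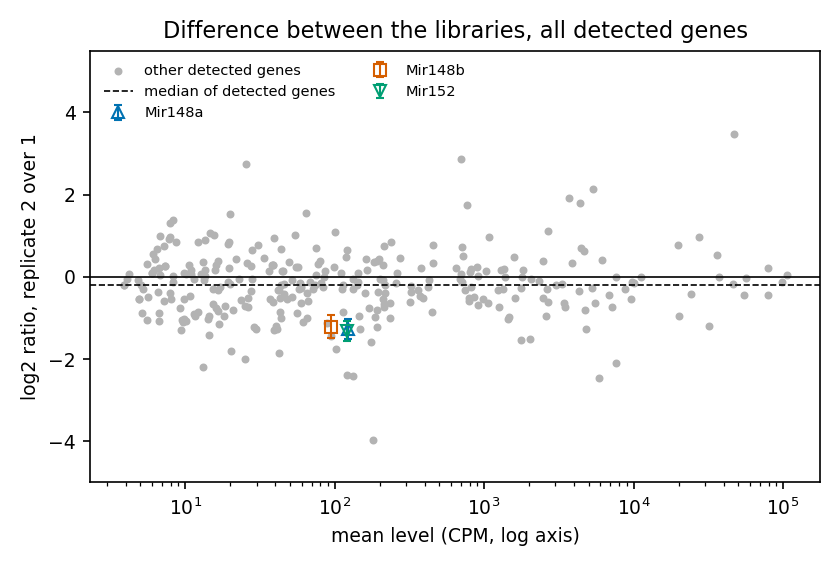
Log2 ratio of replicate 2 over replicate 1 (vertical axis) against mean CPM (log axis) for the 306 detected genes in grey, with the 3 members in colour and 95% exact intervals as bars. The members lie together between -1.31 and -1.21, with the symbols of Mir148a and Mir152 almost on top of each other, below the dashed median at -0.19.

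The members differed from one another in log2 ratio by at most 0.10. To set this beside other families, detected genes were grouped by a shared mature seed, a step chosen after the members' values were seen. There were 14 such groups with at least 3 detected genes, some with genes in common. In the 13 other groups the distance from the lowest to the highest log2 ratio ran from 0.47, in the group of Mir98 with 4 let-7 genes, to 2.73, in the group of Mir125a, with a median of 0.86. The median log2 ratio of those groups ran from -0.88 to 0.97, against -1.26 for this family. Of the 13, 1 group had all its detected genes called lower, the 5 genes with Mir98. Those 5 genes also belong to the larger let-7 group of 11 genes, which shares another seed. That group spanned 0.68, with 9 genes called lower and 1 higher. Both groups thus rest on different mature products of the same hairpins, while each count holds both arms together. Mir106a, Mir17 and Mir20b likewise stand in groups of different seeds. A change of scaling moves all genes alike and leaves these distances as they are. The groups differ in size and depth and several hold genes with copies elsewhere, so the figures are a description.

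**Figure D3:**
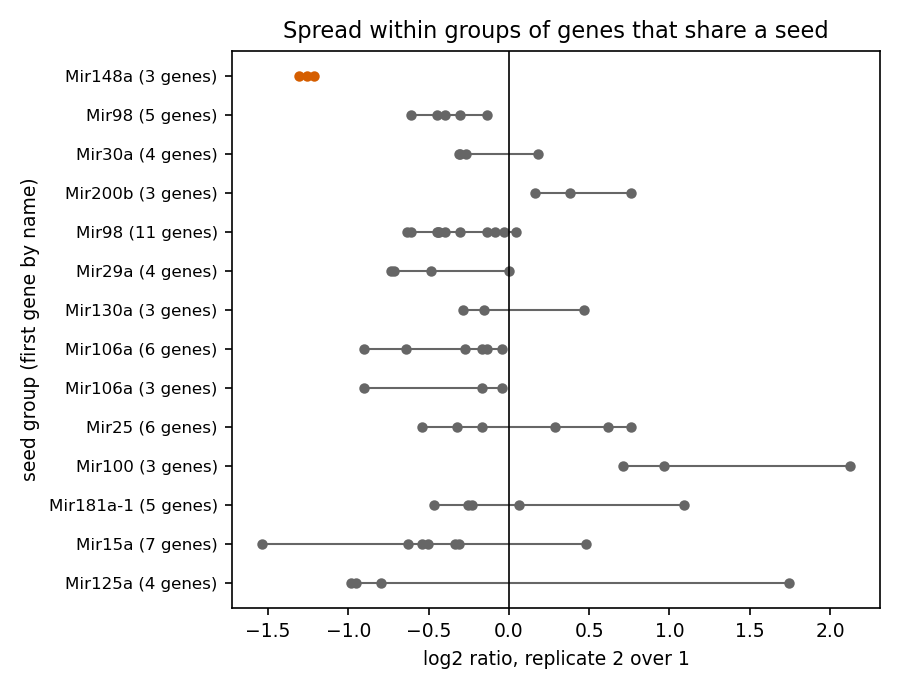
Log2 ratio of replicate 2 over replicate 1 (horizontal axis) of every detected gene in the 14 seed groups, 1 row per group named by its first gene, ordered by the distance from lowest to highest (line). The family, in orange at the top, spans 0.10, less than the width of each member's exact interval. The other rows span 0.47 to 2.73.

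The genes most like each member were taken as the 3 detected genes outside the family at the smallest distance in log2(CPM + 1) over the 2 libraries, which is a measure over only 2 samples. Mir148a and Mir152 were closer to each other (distance 0.06) than to any of these. Their nearest outside genes were the same: Mir222, known in endothelium (0.28 from Mir148a and 0.31 from Mir152), the imprinted Mir298 (0.36 and 0.40) and Mir125b-2 (0.45 and 0.51). Mir222 stood at 147 and 80.9 CPM in replicates 1 and 2, and Mir298 at 209 and 86.6 CPM. Mir148b was nearest to Mir547 on the X chromosome (0.12, at 121 and 55.6 CPM), to Mir203, known in skin epithelium (0.16, at 139 and 51.3 CPM), and to Mir101a (0.37, at 157 and 46.9 CPM). Of the 5 detected epithelium markers only Mir203 was called lower. Mir200c was called higher, by 1.69-fold, and 3 were not called, beside 41.5% lower and 19.6% higher of all 306 detected genes. Mir125b-2 and Mir101a each share 20 bases with another hairpin, so their levels are uncertain. None of the 6 nearest genes lies on the chromosome of the member it resembled.

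Among 3 families set beside this one, the miR-101 family was closest in level. Its genes Mir101a and Mir101b were detected, with 1145 and 563 counts in replicates 1 and 2, and Mir101c had 0. The count ratio of the miR-148 and miR-152 family to it was 1.01 in replicate 1 and 0.982 in replicate 2, a change of 1.03-fold (exact conditional interval 0.893 to 1.20). The miR-29 family, which represses collagen genes and the methyltransferases Dnmt3a and Dnmt3b, had 18.0 times the family's counts in replicate 1 and 41.8 times in replicate 2. That ratio changed 2.32-fold (2.09 to 2.57), beyond counting error. Mir29a alone gave 18405 of the 20968 miR-29 counts in replicate 1 and 21055 of 23133 in replicate 2, with a log2 ratio of 0.00. Mir29b-1, Mir29b-2 and Mir29c had log2 ratios of -0.73, -0.71 and -0.48, so the ratio of sums mainly describes Mir29a. The miR-199 and miR-214 genes had 2.37 and 3.58 times the family's counts, a change of 1.51-fold (1.34 to 1.70). Of their 2756 and 1978 counts, Mir214 gave 2719 and 1943. Mir101a shares 20 bases with Mir101b, and in the miR-29 and the miR-199 and miR-214 sets 3 of 4 genes share them with another hairpin. The levels of these families are therefore uncertain, although Mir29a and Mir214 themselves share no such stretch.

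Other microRNAs reported to repress DNA methyltransferase genes were called in both directions, at shares near those of all detected genes. Of the 7 genes on that list, all detected, 3 were called lower, 2 higher and 2 not called, where 41.5% of the 306 detected genes were lower and 19.6% higher. The list had a median log2 ratio of 0.00 against -0.19 over all detected genes and -1.26 in the family. Its most abundant genes were Mir126a, the endothelial microRNA, at 79461 ± 8214 CPM with a log2 ratio of 0.21, and Mir29a at 7596 ± 6.23 CPM with a log2 ratio of 0.00. Mir29b-1, Mir29b-2 and Mir29c were the ones called lower and Mir126a and Mir185 the ones called higher. With TMM or DESeq2 factors 4 were higher and 1 was lower, against 97 higher and 84 lower, or 94 and 88, of the 306, so no direction held for this list. The 3 Mir29 genes that were called each share 20 bases with another hairpin, and their levels are uncertain.

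Of 10 microRNAs reported in cholesterol handling, where miR-148a also belongs, 9 were detected, with 6 called lower and 2 higher in replicate 2, beside 41.5% lower and 19.6% higher of all 306. TMM and DESeq2 factors each gave 5 lower and 3 higher, beside 84 or 88 lower and 97 or 94 higher of the 306. The median log2 ratio of the 9 was -1.22, against -0.19 over all detected genes. Mir27b was the most abundant at 4827 ± 2826 CPM and was 2.41-fold lower in replicate 2. Mir144, a red cell microRNA, followed at 4410 ± 3462 CPM and was 3.49-fold higher. Mir122, the main liver microRNA, had 98 and 48 counts and was 2.33-fold lower. Mir758 had 1 count in replicate 1 and 0 in replicate 2. Mir27b, Mir128-1, Mir128-2, Mir30c-1, Mir30c-2 and Mir758 each share 20 bases with another hairpin, so their levels are uncertain.

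**Figure D4:**
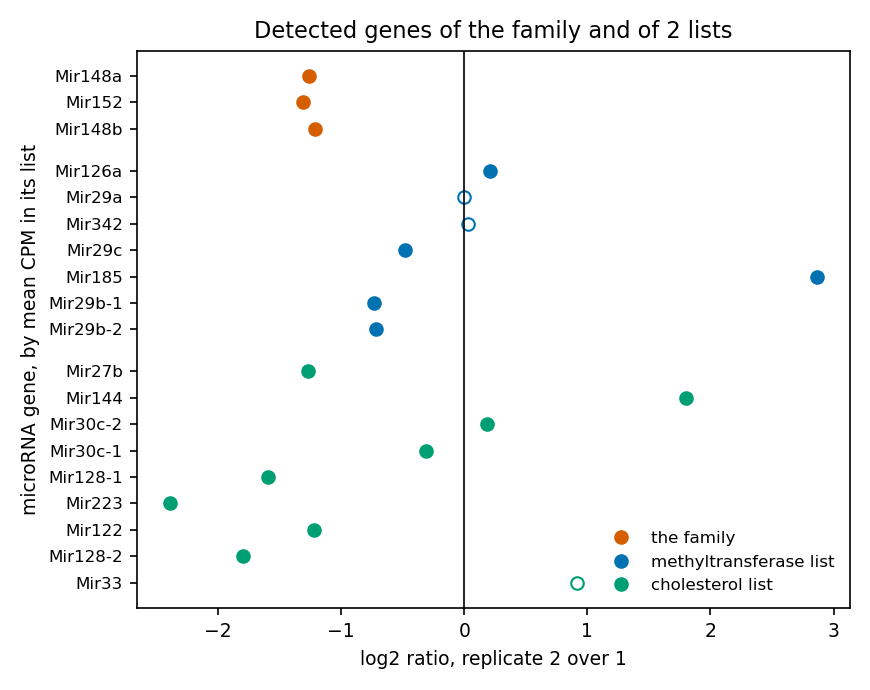
Log2 ratio of replicate 2 over replicate 1 (horizontal axis) for the detected genes of the family (orange), the methyltransferase list (blue) and the cholesterol list (green), ordered by mean CPM within each. Filled points passed the binomial test and open points did not. The family's 3 points lie within 0.10 of each other, and the genes of both lists fall on both sides of 0.

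Markers of the heart's cell types also differed between the libraries. Since 1 gene can carry a sum, sums and single genes are given together. Their calls stand beside 41.5% lower and 19.6% higher in replicate 2 among all 306 detected genes. Fibroblast markers without Mir152 (3 of 5 detected, none at 0 in both) summed to 11155 CPM in replicate 1 and 2524 in replicate 2. That sum was led by Mir21a, at 10018 and 1810 CPM. The other fibroblast markers, Mir214 and the Mir199 genes, summed to 1137 and 714 CPM, a 1.59-fold drop. Of them Mir214 was called lower, Mir199b was not called, and Mir199a-2, under the detection limit, had 7 and 9 counts.

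Cardiac muscle markers (4 of 7 detected, none at 0 in both) summed to 6048 and 8577 CPM, and the rise came from Mir208a, at 1542 and 5865 CPM. The other 3 detected genes, Mir499, Mir208b and Mir1a-2, were called lower, and the list's median log2 ratio was -0.91. Mir1a-1, Mir133a-1 and Mir133a-2 were under the detection limit. These genes and Mir1a-2 each share 20 bases with another hairpin, so their levels and the sum are uncertain. Endothelial markers (3 of 4 detected, none at 0 in both) summed to 77007 and 88163 CPM, of which Mir126a gave 73653 and 85269. Mir221 and Mir222 were called lower, with log2 ratios of -0.19 and -0.86, though Mir221 was not called with TMM or DESeq2 factors. Erythroid markers (4 of 4 detected) summed to 11559 and 95669 CPM, of which Mir451a gave 7816 and 86827. Mir144 was 3.49-fold and Mir486 1.12-fold higher in replicate 2, and Mir3107 was not called. Mir486 and Mir3107 overlap each other in the annotation and are not separate loci, and Mir451a overlaps Mir451b.

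Leukocyte markers (5 of 5 detected) summed to 7064 and 5193 CPM. In replicates 1 and 2, Mir155 stood at 2088 and 2027 CPM, Mir150 at 1897 and 1335 and Mir146a at 1576 and 952. Mir142 stood at 1299 and 840 CPM, and Mir223 at 205 and 39.0. Of the 5 markers 4 were called lower and 1, Mir155, was not called. With TMM or DESeq2 factors 4 were lower and Mir155 was higher. Mir146a shares 20 bases with Mir146b, so its level is uncertain, and Mir142 overlaps the annotated gene Mir142b. Among all 306 detected genes 41.5% were called lower and 19.6% higher. With TMM or DESeq2 factors 84 or 88 of the 306 were lower and 97 or 94 higher. The smooth muscle pair summed to 50667 and 44521 CPM, of which Mir143 gave 48716 and 43522 and Mir145a 1951 and 998. Both Mir143 and Mir145a were called lower, but Mir143 higher with TMM or DESeq2 factors. The liver's Mir122 stood at 40.4 and 17.3 CPM, beside 479 and 200 CPM for the family. Whether these markers play a part in the family's difference was not tested, and in whole tissue fewer cells of a type and less RNA per cell cannot be told apart.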

How the data were processed

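Per the labels, reads from 2 heart libraries were placed on mm10, and the text deposited beside the tables names GENCODE M21. For the aligner, the counting tool and the trimming, no statement was found in the sources used here. Each deposited table holds raw counts per microRNA gene in 3 columns without header, identified from their values as either strand, own strand and opposite strand. Its 4 leading lines count reads without a gene, multimapping ones included. They held 70.0% and 65.3% of reads and were left out.

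Own-strand counts were scaled to CPM, and genes with at least 10 counts in both libraries were tested. With 1 group, edgeR's quasi-likelihood test and DESeq2's test have no contrast. Libraries were therefore compared by exact binomial tests with Benjamini-Hochberg adjustment at 0.05. The test was also run on simulated counts with known fold changes, which held counting error only and were scaled by the unchanged genes. That simulation does not cover variation between samples or the scaling by library totals used here. The p-values measure only the difference of 2 samples, which may be technical. Shares and ratios carry 95% exact intervals. Hairpin and mature sequences come from RefSeq (GRCm38.p6) and matched M21 for all 3 members. The members, lists and tests were chosen with earlier results of these data known. Genes named are the members, the 3 nearest genes of each, and 2 fixed lists by counts with their 2 most abundant genes. The lists' other genes, the marker genes, the Mir130 genes, Mir6341, Mir721 and Mir6389 were named after their values were seen. Of the list entries, Mir146a matched through an older symbol. Alternatives were TMM and DESeq2 factors, either-strand counts, other count filters, thinning, other denominators, hairpin length and each replicate alone. Python 3.11.15, numpy 2.4.6, pandas 2.3.3, scipy 1.17.1, matplotlib 3.10.9, R 4.3.3, edgeR 4.0.16 and DESeq2 1.42.0 were used.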

Additional observations from a re-analysis of the deposited data

How the results depend on the processing

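The 3 members' log2 ratios kept their direction and their call under all 6 alternatives (TMM factors, DESeq2 size factors, either-strand counts, no filter, a minimum of 100 counts, thinning of the larger library), between -1.32 and -0.99, with adjusted p by the exact binomial test from 3.8e-27 to 1.7e-12. The number of genes called ran from 138 (of 182 tested, at 100 counts or more) to 183 (of 682 tested, with no filter), against 187 of 306. With all reads of a library as the denominator, the family's mean share was 0.0107%, and Mir148a, Mir148b and Mir152 stood at 38.8, 29.5 and 38.2 CPM of all reads, lower by construction. Per base of hairpin the mean ratios were 0.754 for Mir148a to Mir152 and 0.589 for Mir148b to Mir152, against 1.02 and 0.782 by counts. With 1 replicate alone, the family share ran from 0.0200% to 0.0479%, a 2.40-fold range, and the ratio of Mir148a to Mir148b from 1.29 to 1.33. No paired analysis was possible because there is only 1 group. Leaving out a replicate removes the comparison of the libraries, so the log2 ratios have no such value. The 2 libraries give no estimate of the spread between animals for a single gene.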
